A study of Mus musculus with 20 samples.

Results

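The genes described here are Trp63, which encodes the transcription factor p63, and 6 keratin genes of basal epithelial cells, Krt5, Krt6a, Krt14, Krt15, Krt16 and Krt17. These 7 genes were chosen by name, out of 21887 genes that code for protein on the assembled nuclear chromosomes, and all 7 were found by symbol in the RefSeq gene table. The data are chromatin immunoprecipitation with sequencing (ChIP-seq) from Comma-Dβ cells, an established mouse mammary epithelial line, at passage 28. There were 20 samples, 4 biological replicates for each of 5 kinds of library. These were input chromatin and chromatin precipitated for HEB (an E protein transcription factor, the product of Tcf12) or for the histone marks H3K4me3, H3K27ac and H3K27me3. All groups were the same line in the same medium with serum, insulin and epidermal growth factor, and the labels name no treatment, genotype or clone.

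Each antibody has 1 deposited peak list for its 4 replicates, so no value below has a replicate error and read depth per sample is unknown. Fold means the authors' enrichment of ChIP over control in a peak. It was compared only within the list of 1 mark, and a percentile gives the share of that list with a lower fold or a smaller width. The median fold was 2.39 over 61496 H3K27ac peaks, 12.9 over 17162 H3K4me3 peaks and 1.74 over 114660 H3K27me3 peaks. A peak is a property of chromatin and does not measure RNA. Gene ends are named lower and upper by their mm10 coordinate.

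p63 is the member of the p53 family that maintains the basal layer of stratified and glandular epithelia. Its gene has a promoter at its start, for the TA isoforms, and a promoter inside the gene, for the ΔN isoforms that predominate in basal cells. Keratins form filaments from pairs of a type I and a type II protein. Krt5 (type II) and Krt14 (type I) are the pair of basal keratinocytes and of mammary basal cells, while Krt6a (type II) with Krt16 and Krt17 (type I) are keratins of hair follicles and of stressed or wounded epidermis. Krt15 is a type I keratin of basal cells and hair follicle stem cells. H3K4me3 marks promoters, H3K27ac marks active promoters and enhancers, and H3K27me3 is laid down by Polycomb complexes.

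RefSeq promoter entries (assembly GRCm38.p6, on which mm10 is based) were found for 2 of the 7 genes, Krt5 and Krt14. The 250 bases before each listed RNA start are shown because the mark peaks described below lie over them and because HEB, like other E proteins, binds the E box CANNTG. Capitals mark each E box. Both sequences are on the minus strand and are written 5′ to 3′ in the direction of the gene. The Krt5 sequence is chr15:101712906-101713155 and ends at the upper end of the gene. The Krt14 sequence is chr11:100206031-100206280 and ends at an RNA start 1.48 kb inside the gene from its upper end.
Krt5: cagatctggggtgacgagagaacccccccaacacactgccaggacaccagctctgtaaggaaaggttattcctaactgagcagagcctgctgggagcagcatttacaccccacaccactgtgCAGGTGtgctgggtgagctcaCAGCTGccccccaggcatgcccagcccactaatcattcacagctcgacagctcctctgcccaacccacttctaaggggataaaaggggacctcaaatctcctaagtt
Krt14: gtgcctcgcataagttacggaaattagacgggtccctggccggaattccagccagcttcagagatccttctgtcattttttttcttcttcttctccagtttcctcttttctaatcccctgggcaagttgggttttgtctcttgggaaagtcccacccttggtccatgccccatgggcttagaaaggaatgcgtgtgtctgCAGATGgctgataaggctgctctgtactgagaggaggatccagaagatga

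The Krt5 promoter held 2 E boxes, CAGGTG at position -128 and CAGCTG at position -107, counted from the start to the first base of the motif. In the 300-base promoter windows of 32851 RefSeq entries, searched on both strands, CAGGTG occurred in 20.2%, CAGCTG in 16.3% and any CANNTG in 72.3%. The Krt14 window, which precedes the RNA start inside the gene and not its upper end, held 1 E box, CAGATG, at position -50. Neither window held TATAAA (13.6% of all promoters), the GC box GGGCGG (35.7%), the AP-1 motif TGANTCA (7.81%) or the AP-2 motif GCCNNNGGC (16.6%). All 250 bases shown for Krt5 lay in both an H3K27ac and an H3K27me3 peak, and 98 of them lay in an H3K4me3 peak. All 250 bases shown for Krt14 lay in an H3K27ac and an H3K4me3 peak, and none in an H3K27me3 peak.

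H3K27ac was listed at all 7 genes, H3K4me3 at a share near that of all protein-coding genes, and H3K27me3 mainly over the type II keratins. An H3K27ac peak lay over the gene or within 1 kb of its ends at 7 of 7 genes, where 63.2% of all protein-coding genes had one. H3K4me3 was found at 5 of 7, against 61.2% of all genes, and was missing from Krt15 and Krt16. H3K27me3 was found at 4 of 7, against 37.5%, and was missing from Trp63, Krt16 and Krt17. All 3 marks met at Krt5, Krt6a and Krt14, 3 of 7, against 11.5% of all genes. When peaks under a −log10 q of 5 were dropped, H3K27me3 remained at 1 of the 7 genes, Krt5, and at 19.5% of all genes. H3K27ac then remained at 6 of 7, all but Krt15, against 55.1% of all genes, and H3K4me3 at 5 of 7, against 59.6%.

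Counted at gene ends alone, H3K27ac lay within 1 kb of an end at 6 of 7 genes, against 53.4% of all genes. H3K4me3 did so at 4 of 7, against 55.8%, and the same 4 had both marks at an end, against 48.8%. H3K27me3 did so at 3 of 7, against 32.3%. Each of the 4 H3K4me3 peaks (Krt5, Krt6a, Krt14 and Krt17) lay at the upper gene end and 0 lay at a lower end. The upper end is the start of Krt5, whose promoter entry is on the minus strand. The strand of Krt6a and Krt17 was not used here.

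**Figure D1:**
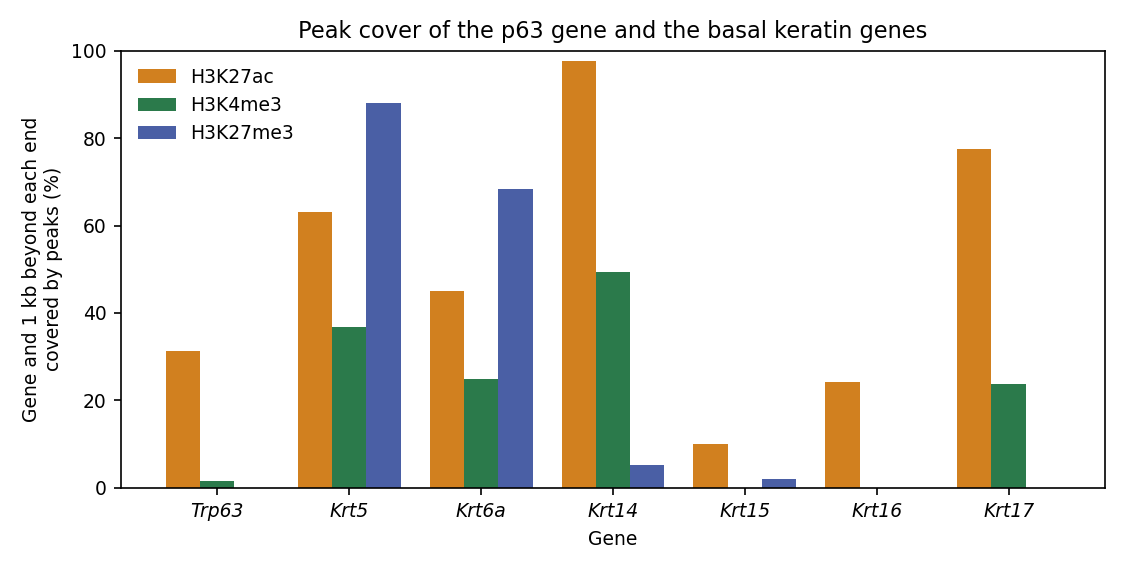
Share of each gene, with 1 kb beyond both ends, covered by peaks of H3K27ac, H3K4me3 and H3K27me3 (bars, percent, 1 deposited list per mark, no error). H3K27ac covered 97.7% at Krt14 and 10.0% at Krt15, and H3K27me3 covered 88.0% at Krt5 and 68.3% at Krt6a but at most 5.17% at the other 5 genes.

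Trp63 (gene ID 22061, chromosome 16, 25683763 to 25892088) showed many H3K27ac peaks along its 208 kb and a single H3K4me3 peak far inside the gene. That H3K4me3 peak spanned 25801954 to 25805168, began 118 kb from the lower end of the gene and was 3.21 kb wide. Its fold was 4.31, at the 28.1 percentile of the list, with a −log10 q of 24.5. No H3K4me3, H3K27ac or H3K27me3 peak lay within 1 kb of either end of Trp63. H3K4me3 inside a gene and at neither end occurred in 5.41% of all protein-coding genes, and in 15.4% of the 2429 genes of 100 kb or more. The start positions of the TA and ΔN isoforms were not used here, so the peak was not assigned to an isoform.

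The H3K4me3 peak of Trp63 lay wholly within an H3K27ac peak of 8.19 kb (25798697 to 25806881, fold 3.42). In all, 16 H3K27ac peaks lay over Trp63 and covered 31.2% of the gene with its 1 kb flanks. The median cover was 3.37% over genes of 100 kb or more, and 97.2% of those had less than Trp63. By number of peaks over the gene, 89.3% of them had fewer. The first 30 kb of the gene held 0 H3K27ac peaks. From the lower end to the H3K4me3 peak H3K27ac covered 23.7% of 118 kb, and from that peak to the upper end 39.5% of 86.9 kb.

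The strongest H3K27ac peaks of Trp63 lay beyond the H3K4me3 peak, 158 and 172 kb from the lower end. The first (25841419 to 25845951) was 4.53 kb wide with a fold of 7.08, at the 96.6 percentile of the H3K27ac list. The second (25855990 to 25862889) was 6.90 kb wide with a fold of 6.75, at the 95.9 percentile. The widest peak inside the gene, 13.4 kb (25774561 to 25787985), lay ahead of the H3K4me3 peak and had a fold of 4.13. The 4 weakest peaks inside the gene had folds of 1.80 to 2.11 and widths of 0.247 to 1.11 kb, and 3 of them lay together 185 to 191 kb from the lower end.

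Further H3K27ac peaks lay on both sides of Trp63, apart from it. The nearest below was 44.4 kb from the lower end. Within 100 kb of the gene, its body included, there were 29 H3K27ac peaks, more than at 98.9% of protein-coding genes (median 9), a count that also grows with the length of the gene. Of these, 6 lay below the gene, 16 over it and 7 above it. The strongest peak outside the gene was 6.71 kb above it (25898801 to 25903030, 4.23 kb, fold 4.74). The widest, 18.7 kb with a fold of 3.32, lay 48.5 kb above Trp63 and reached P3h2, a collagen prolyl hydroxylase gene that is the next gene on that side. H3K27me3 covered 0% of the gene and 0% of the 100 kb on either side. Of the 2429 genes of 100 kb or more, 43.7% also had no H3K27me3 peak over the gene or within 1 kb.

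**Figure D2:**
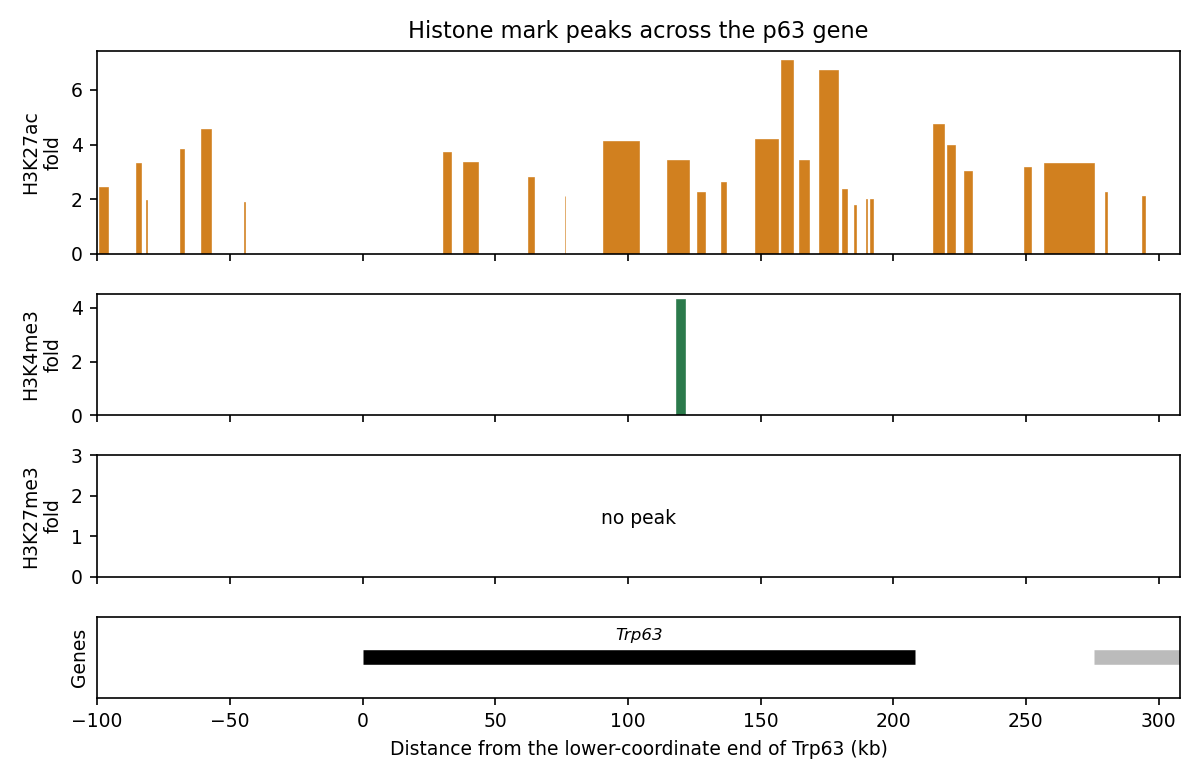
Peaks of the 3 marks around Trp63, drawn from their start to their end by distance from the lower-coordinate end of the gene (kb), with the authors' fold as height and genes as bars below (grey, P3h2). The only H3K4me3 peak begins at 118 kb, the strongest H3K27ac peaks begin at 158 and 172 kb, and no H3K27me3 peak is present.

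Krt14 (gene ID 16664, chromosome 11, 100203162 to 100207510) had the strongest H3K4me3 and the most complete H3K27ac of the 7 genes. Its H3K4me3 peak (100204607 to 100207740) was 3.13 kb wide with a fold of 16.2, at the 57.7 percentile of the list. The next H3K4me3 folds were 6.65 at Krt5, 4.31 at Trp63, 2.99 at Krt17 and 2.78 at Krt6a, at the 35.7, 28.1, 19.6 and 17.4 percentiles. Only the Krt14 peak was above the median fold of the H3K4me3 list. No replicate spread is available to say which of these neighbours differ.

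A single H3K27ac peak of 8.85 kb (100202306 to 100211150) spanned all of Krt14, with a fold of 6.23 at the 94.5 percentile. One peak spanning a whole gene was found at 1 of the 7 genes and at 2.15% of all protein-coding genes. All 3134 bases of H3K4me3 at Krt14 were also in H3K27ac. The H3K27me3 peak inside Krt14 was 328 bp wide with a fold of 1.68 and a −log10 q of 1.86. The lowest −log10 q in that list was 1.01.

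Krt17 (gene ID 16667, 100256215 to 100261029) carried both active marks, H3K27ac near the middle of its list by fold and H3K4me3 low in its list. Its H3K4me3 peak (100259399 to 100261011) was 1.61 kb wide, and all 1613 bases lay within an H3K27ac peak of 4.72 kb with a fold of 2.41, at the 50.8 percentile. A second H3K27ac peak, 0.209 kb below the gene, was 2.87 kb wide with a fold of 3.02. Together they covered 77.5% of the gene and its flanks, and the share was 11.6% without peaks under a −log10 q of 5. H3K27me3 covered 0%.

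Krt16 (gene ID 16666, 100246091 to 100248902), 7.31 kb below Krt17, had H3K27ac at its upper end and no H3K4me3. That H3K27ac peak (100248608 to 100249772) was 1.17 kb wide with a fold of 3.41, at the 73.8 percentile. Krt15 (gene ID 16665, 100131759 to 100135949) had the least of the 7. Its 1 H3K27ac peak, 0.621 kb wide at the upper end (100135823 to 100136443), had a fold of 2.12 and a −log10 q of 2.52, and its 1 H3K27me3 peak, 0.860 kb wide and 0.882 kb below the gene, had a fold of 1.56 and a −log10 q of 1.25. Both lie under a −log10 q of 5, so Krt15 carried none of the 3 marks at that threshold.

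The region of the type I genes held H3K27ac and little H3K27me3. From the lower end of Krt15 to the upper end of Krt17, 129 kb, H3K27ac covered 23.1%, H3K4me3 3.67% and H3K27me3 4.76%. The H3K27ac share was higher in the 100 kb above that span and lower in the 100 kb below. It was also higher, at 51.7%, from Krt6a to Krt5, so H3K27ac cover was not particular to the type I genes. Within 100 kb there were 22 H3K27ac peaks for Krt14, 20 each for Krt16 and Krt17 and 15 for Krt15, with 29 distinct peaks in all. The median over all protein-coding genes was 9. The count was higher than at 94.0% of genes for Krt14, 90.5% for Krt16 and Krt17 and 76.0% for Krt15. The strongest of these peaks (100283073 to 100292758) was 9.69 kb wide with a fold of 8.82, at the 98.8 percentile. It lay over the non-coding gene Gm14206, 22.0 kb above Krt17 and 75.6 kb above Krt14, and Krt42 was the nearest protein-coding gene. The next within 100 kb of Krt16 and Krt17, apart from the Krt14 peak itself, lay over Eif1, a translation initiation factor gene (fold 5.57). Within 100 kb of Krt15 it was a peak of 1.31 kb nearest to the hair keratin gene Krt31 (fold 5.71).

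**Figure D3:**
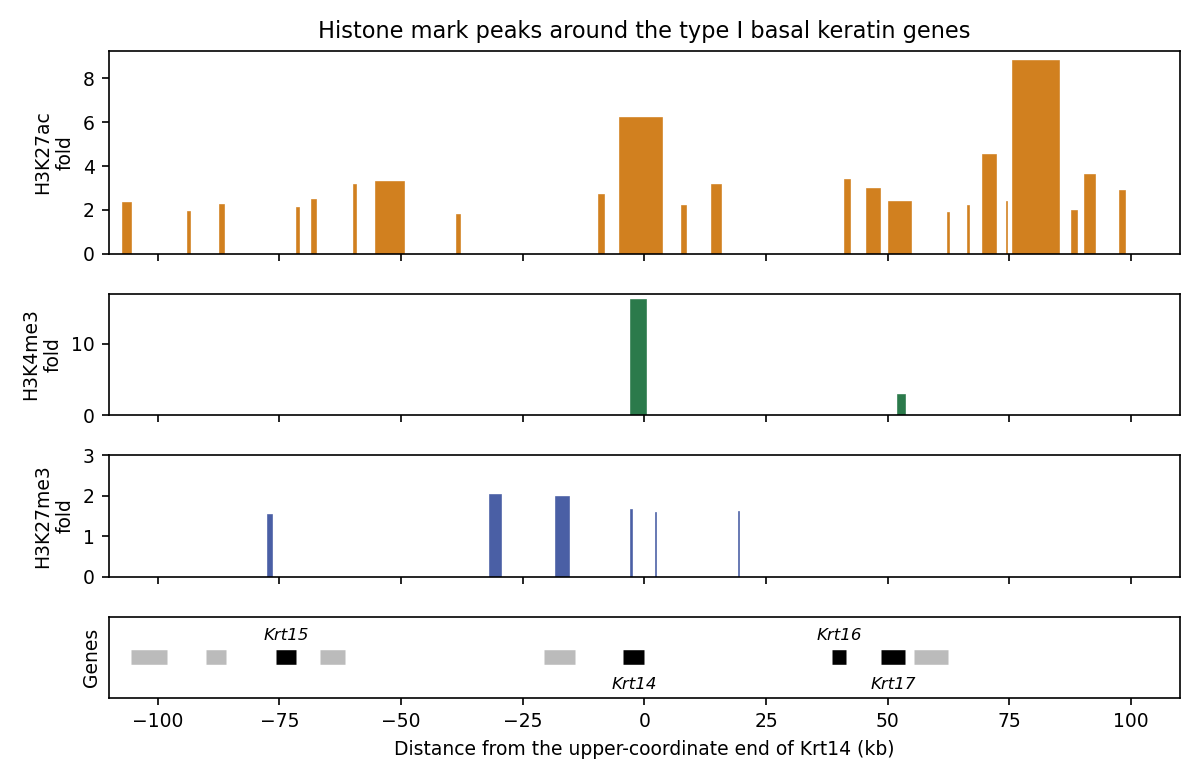
Peaks of the 3 marks around the type I genes by distance from the upper-coordinate end of Krt14 (kb), with the authors' fold as height (black bars, the 4 genes described, grey bars, other genes). H3K4me3 appears at Krt14 (fold 16.2) and Krt17 (2.99) and not at Krt15 or Krt16, and the tallest H3K27ac peak (8.82) begins 75.6 kb above Krt14.

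Krt5 and Krt6a differed from the type I genes in carrying H3K27me3 over most of their length together with both active marks. At Krt5 (gene ID 110308, chromosome 15, 101707069 to 101712905) an H3K27ac peak of 10.7 kb (101708969 to 101719641) had a fold of 4.92, at the 88.6 percentile. Its H3K4me3 peak (101710112 to 101713003) was 2.89 kb wide. An H3K27me3 peak of 5.33 kb (101710059 to 101715388) had a fold of 2.43 and a −log10 q of 8, at the 96.8 percentile by fold. All 2892 bases of the H3K4me3 peak lay in both other marks, and 4000 bases of Krt5 with its flanks lay in H3K27ac and H3K27me3 together. H3K27me3 covered 88.0% of Krt5 and its flanks, and 49.1% without peaks under a −log10 q of 5.

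Krt6a (gene ID 16687, 101689928 to 101694305) showed the same 3 marks at lower fold. Its H3K4me3 peak (101692733 to 101694319) was 1.59 kb wide. The H3K27ac peak at its upper end (101693350 to 101700946) was 7.60 kb wide with a fold of 4.69, at the 87.0 percentile. An H3K27me3 peak of 16.8 kb (101692297 to 101709121), with a fold of 2.02 and a −log10 q of 4.59, joined Krt6a to Krt5. At Krt6a 1587 bases were in H3K4me3 and H3K27me3, 970 in all 3 marks, and the H3K27me3 share was 0% without peaks under a −log10 q of 5. Krt6a and its neighbour Krt6b are close copies, and no source used here states how reads that match both were treated.

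Of 17112 H3K4me3 peaks on the same chromosomes, 888 (5.19%) overlapped both H3K27ac and H3K27me3, and 3 of the 5 H3K4me3 peaks of the 7 genes were among them. The H3K27me3 peaks under those 3 had a −log10 q of 8 at Krt5, 4.59 at Krt6a and 1.86 at Krt14. Only that of Krt5 passes a −log10 q of 5, a threshold at which the share of all H3K4me3 peaks was not counted. The median H3K4me3 fold was 10.3 in those 888 peaks and 17.6 in peaks over H3K27ac alone. The values at Krt5 (6.65) and Krt6a (2.78) were under both medians, and the value at Krt14 (16.2) lay between them. Marks on the same chromosome copy and marks on different copies or in different cells of the culture cannot be told apart in these lists.

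The chromatin around Krt5 and Krt6a was mostly H3K27me3, with H3K27ac centred on the 2 genes. Between the lower end of Krt6a and the upper end of Krt5, 23.0 kb, H3K27me3 covered 89.4% and H3K27ac 51.7%. In the 100 kb below, H3K27me3 covered 75.6% and H3K27ac 2.82%, and in the 100 kb above 63.4% and 11.5%. Many of these H3K27me3 peaks were weak. Without peaks under a −log10 q of 5, a threshold applied to these regions after their values were seen, the cover was 12.4% between the genes, 0% below and 35.8% above. For both genes 8 H3K27ac peaks lay within 100 kb, the same 8, near the median of all genes (9), and all 8 overlapped H3K27me3. At Krt14 1 of 22 did, and at Trp63 0 of 29. These overlaps were of 1 bp or more with weak H3K27me3 peaks included. The share of all 61496 H3K27ac peaks that overlap H3K27me3 was not counted here.

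**Figure D4:**
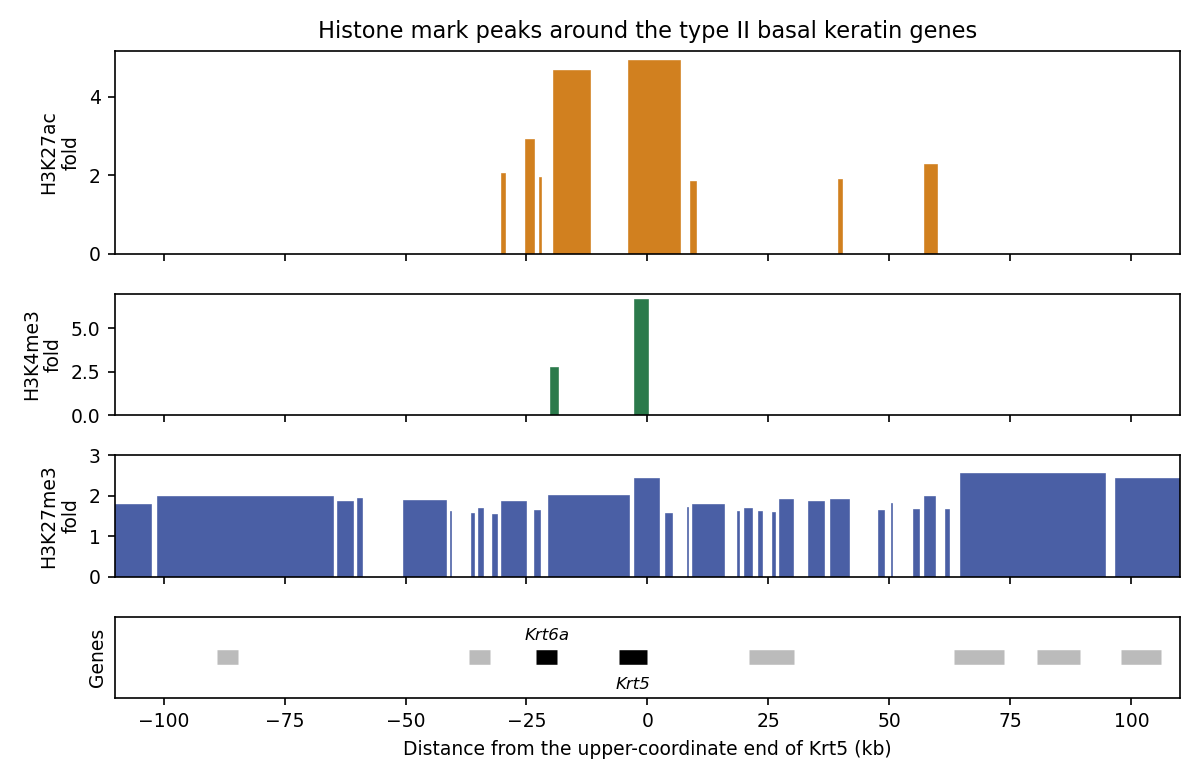
Peaks of the 3 marks around the type II genes by distance from the upper-coordinate end of Krt5 (kb), with the authors' fold as height (black bars, Krt6a and Krt5, grey bars, other genes). H3K27me3 runs on both sides (75.6% and 63.4% of 100 kb), and the tallest H3K27ac peaks, with folds of 4.69 and 4.92, lie at Krt6a and Krt5.

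None of the 956 HEB consensus sites lay in any of the 7 genes or within 100 kb (0 of 7, against 12.0% of all protein-coding genes). At that share a count of 0 among 7 genes is near the background, and it is not a result about these genes. The nearest site to the type I genes was chr11:99879278-99879770, 252 kb from Krt15, 323 kb from Krt14, 366 kb from Krt16 and 376 kb from Krt17. It lay 0.337 kb from an end of Gm11567, in an H3K27me3 peak. The nearest site to the type II genes was chr15:102004914-102005795, 292 kb from Krt5 and 311 kb from Krt6a, in an H3K27ac peak 1.01 kb from an end of the simple epithelial keratin gene Krt8. From Trp63 the nearest site was 4019 kb away, in an H3K27ac peak, with Hes1, a Notch target gene, as the nearest protein-coding gene at 154 kb. HEB sites are few, and the median distance to a site was 839 kb over all genes and 323 kb over these 7. A list of consensus sites does not show weaker binding, so these counts describe the list and not the absence of HEB. The E boxes of Krt5 shown above thus lay 292 kb from the nearest listed site.

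The other keratin genes gave the setting of the 6 basal ones. Of 47 other protein-coding keratin genes, 17 had H3K27ac over the gene or within 1 kb, 9 had H3K4me3 and 33 had H3K27me3. The counts were 6, 4 and 4 of the 6 basal keratins, and the shares of all protein-coding genes 63.2%, 61.2% and 37.5%. The median share covered by H3K27ac was 0% in the 47 and 54.0% in the 6, and by H3K27me3 35.9% and 3.54%. The H3K27me3 medians went opposite ways in the 2 clusters. On chromosome 15 the median was 78.2% in the 2 basal keratins and 57.1% in the 24 others. On chromosome 11 it was 0.961% in the 4 basal keratins and 6.13% in the 23 others. The 2 basal keratins of chromosome 15 share an H3K27me3 peak of 16.8 kb. Without peaks under a −log10 q of 5, H3K27me3 covered 49.1% at Krt5 and 0% at Krt6a. The other keratins were not recounted at that threshold. The 7 genes were chosen with results of these data known, and no test was made of these differences. On chromosome 15, 20 of 24 other keratin genes had H3K27me3, and on chromosome 11 13 of 23 had it. HEB sites lay within 100 kb of 11 of the 47, against 12.0% of all genes. Neighbouring keratin genes shared sites, so these 11 genes rested on 5 distinct sites. Of those 5 sites 4 lay in H3K27ac, and the share of all HEB sites in H3K27ac was not counted here.

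H3K4me3 at a gene end was found at 8 other keratin genes, namely Krt7, Krt8, Krt10, Krt18, Krt79, Krt80, Krt86 and Krt222. Among the simple epithelial keratins, Krt18 had an H3K4me3 fold of 19.7 and Krt8 one of 5.45, and both had 0% H3K27me3. Krt7 had an H3K4me3 fold of 8.86 with 5.70% of its window in H3K27me3. Krt10, a keratin of suprabasal epidermis, had a fold of 17.2 with 11.4% in H3K27me3. At Krt222 H3K4me3 (fold 30.2) covered 0.127% of the window. The H3K4me3 folds of Krt79 and Krt80 were 2.16 and 3.56, and Krt86 had H3K27me3 over 83.1% of its window.

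None of the 6 other keratin genes next to the basal keratins had H3K4me3, and 3 of the 6 had H3K27ac at a gene end. Krt6b, 9.63 kb below Krt6a, and Krt71, a hair keratin gene 21.0 kb above Krt5, had 0% H3K27ac and 0% H3K4me3, with H3K27me3 over 32.7% and 52.3%. Krt9, 9.92 kb below Krt14, had 33.0% H3K27me3 and neither active mark. Krt42, 1.85 kb above Krt17, had 9.49% H3K27ac and no other mark. Krt19, a luminal keratin gene 4.86 kb above Krt15, had 4.27% H3K27ac, and Krt13, a mucosal keratin gene 10.2 kb below Krt15, had 17.3%, both without H3K4me3 or H3K27me3. Next to Trp63, Tprg lay 260 kb below with 28.1% H3K27ac and no H3K4me3, and P3h2 lay 67.2 kb above with both active marks at a gene end.

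**Figure D5:**
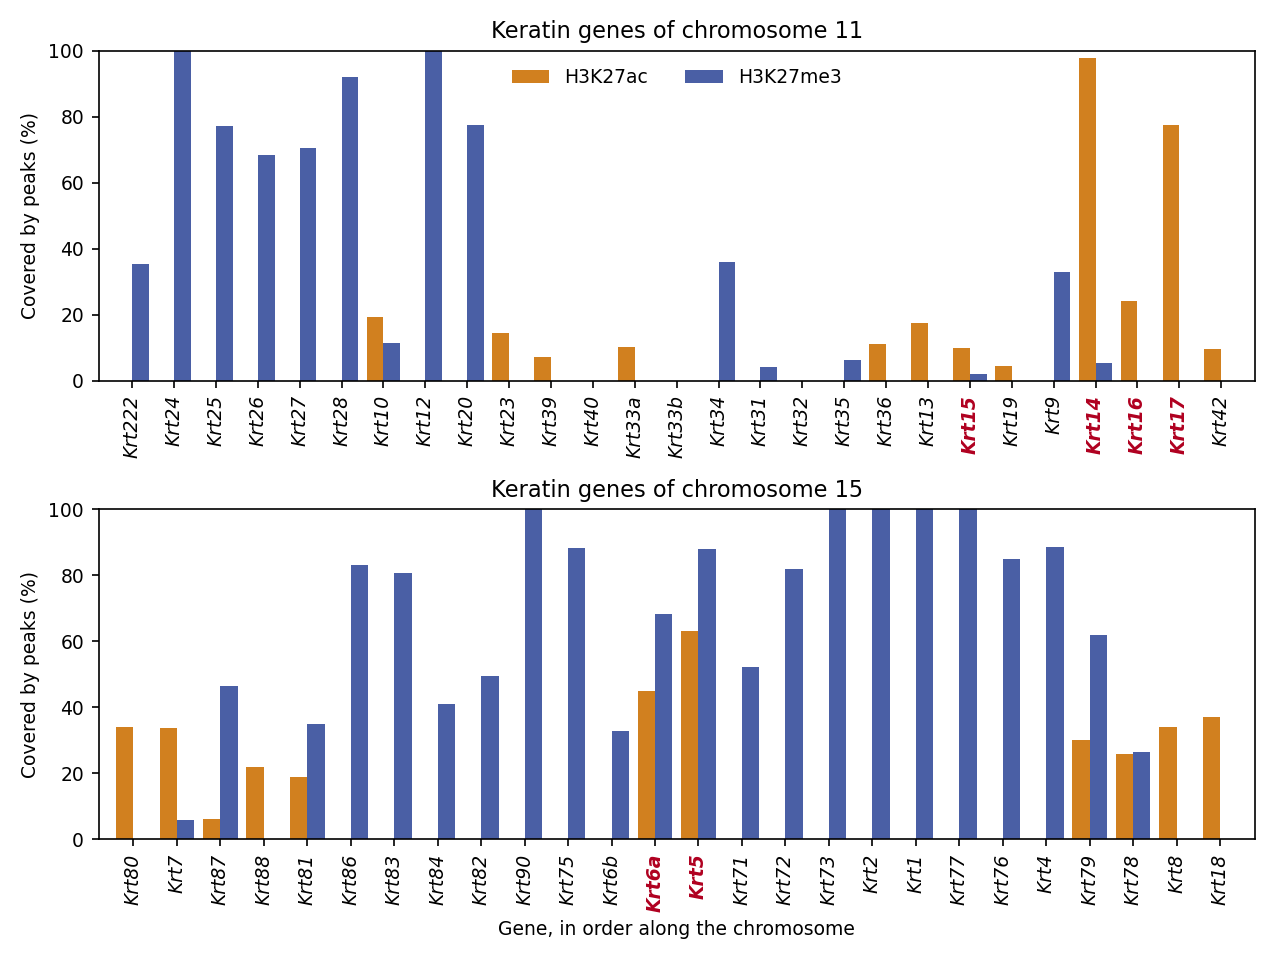
Share of each keratin gene with 1 kb beyond both ends covered by H3K27ac and H3K27me3 peaks (bars, percent), in order along chromosomes 11 and 15, with the 6 basal keratins in red. Krt14 (97.7%) and Krt17 (77.5%) have the highest H3K27ac of chromosome 11, and Krt5 and Krt6a the highest of chromosome 15, where H3K27me3 covers 88.0% and 68.3% of them.

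Genes of a chosen p63 list had both active marks over the gene or within 1 kb, with weak peaks included. In a list of 26 genes of the p63 programme (p63 targets, partner transcription factors, basal adhesion genes and p53 family members), 26 had H3K27ac and 26 had H3K4me3 over the gene or within 1 kb, and 13 had H3K27me3, beside 63.2%, 61.2% and 37.5% of all genes. Both active marks lay at a gene end in 21 of 26, against 48.8% of all genes. No test was made of these differences. Among the widest H3K27ac peaks were those at Tfap2a (AP-2α, 19.8 kb), Klf5 (a Krüppel-like factor, 14.1 kb), Sfn (14-3-3σ, 11.9 kb), Perp (a desmosomal p63 target, 8.94 kb) and Cdh3 (P-cadherin, 8.60 kb). Of the p53 family, named after their values were seen, Trp53 had an H3K4me3 fold of 36.6 and no H3K27me3, and Trp73 had one of 3.02 with an H3K27me3 peak of 19.9 kb (fold 3.11). HEB sites lay within 100 kb of 4 of the 26 genes, a share near the 12.0% of all genes. These were Cdh3, Itgb4, Ovol1 and Zfp750, the last 3 named after their values were seen.

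In a chosen list of 9 genes for proteins linked to keratin filaments, all 9 had both active marks at a gene end, against 48.8% of all genes. H3K27me3 was found at 5 of 9, against 37.5%. Dst is in the p63 programme list as well. The widest H3K27ac peaks were at Plec (plectin, 23.5 kb), Pkp1 (plakophilin 1, 22.7 kb), Jup (plakoglobin, 15.9 kb), Dsp (desmoplakin, 7.68 kb), Dst (dystonin, 7.43 kb) and Pkp3 (plakophilin 3, 5.03 kb). HEB sites lay within 100 kb of 4 of these 9, against 12.0% of all genes, namely Plec, Eppk1, Evpl and Ppl, the last 3 named after their values were seen. Genes near each other can share sites, and the distinct sites behind these 4 genes were not counted. No test was made of this difference.

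Marker genes of several cell types were set beside the label of the cells. Of the 7 basal markers, 4 are genes described above (Trp63, Krt5, Krt14 and Krt17), so only Itga6, Snai2 and Cdh3 add to them. Both active marks lay at a gene end in 6 of 7 basal markers (all but Trp63, whose H3K4me3 is internal) and in 6 of 9 luminal markers, against 48.8% of all genes. Itga6, Snai2 and Cdh3 each had both. Of suprabasal and hair keratinocyte markers 1 of 6 (Krt10) had both there, and of fibroblast markers 1 of 3 (Dcn). Of endothelial, immune and adipocyte markers 0 of 3 each did. Over the gene or within 1 kb, H3K27ac lay at 7 of 7 basal, 8 of 9 luminal and 2 of 6 suprabasal and hair markers. It lay at 2 of 3 fibroblast, 2 of 3 endothelial, 1 of 3 immune and 1 of 3 adipocyte markers, against 63.2% of all genes. H3K4me3 lay at 7, 8, 1, 2, 1, 1 and 1 in the same order, against 61.2%. At Pdgfra, of the fibroblast list, both lay away from the gene ends. Krt19, Elf5 and Foxa1 of the luminal list had no H3K4me3 at a gene end. The single genes given from these marker lists were named after their values were seen.

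The genes with the most similar pattern were found over 6 values, the share covered and the highest fold for each mark, each as a percentile over all protein-coding genes. Nearest to Trp63 were Foxn1, a transcription factor gene of thymus and hair follicle (distance 5.99 percentile points), and Fndc7 (6.05). Nearest to Krt5 were Hoxb7 (7.58) and Hoxb8 (8.68), whose windows share their strongest peaks, and Foxs1 (14.2). Nearest to Krt14 were Rpl10, a ribosomal protein gene (7.03), Dnase1l1 (12.3) and Alyref2 (15.2). Rpl10 and Dnase1l1, both on chromosome X, had the same highest H3K27ac fold (5.78) and H3K4me3 fold (14.8), so they may not be separate matches. Each value rests on 1 list per mark, so the order of these neighbours has no error attached.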

How the data were processed

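ChIP-seq was done on 20 Comma-Dβ samples, 4 each for HEB, H3K27ac, H3K4me3, H3K27me3 and input. The authors deposited 1 list per antibody. The submitters' processing notes name mm10 and SAMtools. The aligner, peak caller, control and way of combining replicates were not given in the sources used here. For HEB the authors deposited positions only, with a minimum overlap of 2 replicates per its name. The 3 histone lists have the broadPeak layout, per the files, with the authors' fold enrichment (a ratio of ChIP over control), −log10 q per peak, and a deposited score that was not used.

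Peaks were joined to gene positions of RefSeq GRCm38.p6 by an overlap of 1 bp, with Python 3.11.15, numpy 2.4.6 and pandas 2.3.3. The joining code was checked against direct counting on simulated intervals. Windows reached 1 kb beyond gene ends, and 100 kb for H3K27ac and HEB. The gene table has no strand, so either end was used in place of the annotated start. No test was made, because 1 list per antibody gives no replicate spread.

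The 7 genes, the other lists and the thresholds were chosen with earlier results of these data known. Named genes followed a fixed rule, apart from those stated above to be named after their values were seen. The rule took the 7 genes, other keratins with H3K4me3 at an end, and immediate neighbours. It also took at most 6 genes per list by the widest H3K27ac peak. Genes nearest to HEB sites and to the 3 strongest H3K27ac peaks, and the 3 most similar genes, completed it. One gene that this rule names is not reported here. Alternatives changed windows, distances, overlap and peak thresholds.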

Additional observations from a re-analysis of the deposited data

How the results depend on the processing

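Of 39 alternative values for the counts over the 7 genes, 32 stayed within 1.5 times and 7 did not. When only peaks over their list's median fold were kept, H3K4me3 was left at 1 gene over the gene or within 1 kb and at 1 gene by gene ends (Krt14), H3K27me3 at 2 genes, and 41 of 66 H3K27ac peaks within 100 kb remained. With −log10 q of 5 or more, H3K27me3 was left at 1 gene by either count and 37 H3K27ac peaks remained. These thresholds drop peaks by construction. The HEB count was 0 at 50, 100 and 200 kb, and Trp63 kept 1 internal H3K4me3 site under both of its alternatives. Of 21 covered shares, 6 moved by more than 1.5 times with −log10 q of 5 or more, those of H3K27me3 at Krt5, Krt6a, Krt14 and Krt15 and of H3K27ac at Krt15 and Krt17. Leaving out a replicate was not possible with 1 list per antibody. No paired analysis was possible because the lists carry no column per replicate. Depth is unknown, so a missing peak is a peak not listed, not a mark shown to be absent.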
